A study of Mus musculus with 6 samples.

Results

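The 10 genes described here mark the blood vessels of the brain, namely the endothelial genes *Cldn5*, *Pecam1*, *Flt1*, *Kdr* and *Tek*, the barrier transporters *Slc2a1* and *Abcb1a*, and the mural cell genes *Pdgfrb*, *Rgs5* and *Acta2*. They were chosen by gene symbol as known markers, with earlier results of these data known. All 10 were found among the 52390 genes of the count table and among the 21844 genes with enough counts to be tested. RNA was sequenced from brain tissue of 3 mice that overexpressed the long noncoding RNA *AP1AR-DT* (*AP1AR-DT* OE mice, named AC109347.1 in the sample labels) and 3 control mice, and the question was what a gain of this RNA does in the brain. All mice were male C57BL/6J with no altered allele of their own. At 8 weeks of age the mice received a recombinant adeno-associated virus (rAAV) in the medial prefrontal cortex (mPFC), and the age at tissue collection is not given in the sources used here. In *AP1AR-DT* OE mice the virus carried human *AP1AR-DT* behind a promoter of human synapsin I, a neuronal gene, and EGFP under the CMV promoter, while control mice received an empty rAAV vector. The promoter of the transgene is thus a neuronal one, while the genes described here mark vessel cells. The labels give the tissue as brain, and the methods and results of the study name cortical tissue and the mPFC.

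Brain capillaries are tubes of endothelial cells sealed to each other by tight junctions, and they take up nutrients and expel drugs through transporters, which together form the blood-brain barrier. Endothelial growth and stability are set by receptors for vascular endothelial growth factors and angiopoietins. Pericytes on capillaries and smooth muscle cells on arterioles, together called mural cells, wrap the endothelium and depend on platelet-derived growth factor from endothelial cells.

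The 6 libraries held 42061721 to 54668294 counts, and the share of mitochondrial counts was 7.20 to 9.86% in controls and 5.75 to 6.80% in *AP1AR-DT* OE libraries. No row of the table names *AP1AR-DT*, so its level was not analysed here. Several libraries stood apart in the cell types they held. The summed level of 10 choroid plexus markers was 5110 normalized CPM (CPM, each library's counts brought to the same total, with TMM factors) in control 3 and 116 to 155 in the other 5 libraries. The summed level of 6 hypothalamic markers was 482 in control 2 and 67.1 in control 3, against 3.71 to 8.27 in the other 4. Striatal markers summed to 1840 in OE library A and 270 to 993 in the others. Oligodendrocyte markers summed to 10600 in control 3 and 5050 to 6430 in the others. Markers of excitatory neurons of the cortex were present, but *Slc17a7*, the vesicular glutamate transporter of these neurons, ranged from 3.86 in control 2 to 463 in OE library B. Markers of meningeal and perivascular fibroblasts, which sit on vessels, summed to 289 in control 3 and 36.8 to 118 in the others, and haemoglobin and other red blood cell markers ranged from 124 to 281 in controls and from 170 to 240 in *AP1AR-DT* OE libraries. No marker of these lists was at 0 in all libraries. The *AP1AR-DT* OE columns of the table are numbered 1 to 3 while the labels number these mice 3 to 5, so the columns were matched to the group only and are called A, B and C in the order of their numbers.

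Per kb of the longest transcript, the glucose transporter gene *Slc2a1* and the claudin gene *Cldn5* had the highest levels, at 23.5 ± 3.42 and 19.4 ± 6.64 normalized CPM per kb (SD, n = 6). *Slc2a1* lay above *Cldn5* in 4 of 6 libraries, so their order was within the spread. *Rgs5* came next with 8.11 ± 0.656 per kb, below *Cldn5* and above *Flt1* in 6 of 6 libraries. *Flt1* (3.58 per kb), *Pecam1* (3.21) and *Pdgfrb* (3.20) formed a middle group whose order changed between libraries, with *Pecam1* above *Pdgfrb* in 3 of 6. *Acta2* (2.44 per kb) and *Abcb1a* (1.98) exchanged places in 3 of 6 libraries. The receptors *Tek* and *Kdr* were lowest, with 1.14 and 0.785 per kb. With the median in place of the longest transcript length, *Slc2a1* moved to 110, *Rgs5* to 13.8, *Flt1* to 12.1 and *Abcb1a* to 6.18 per kb, because GENCODE lists short transcripts of these genes. *Abcb1a* then lay above *Pecam1*, *Acta2* and *Pdgfrb*, so the order below *Flt1* depended on the length used. The endothelial, barrier and mural markers were thus all measurable in every library.

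In the comparison of *AP1AR-DT* OE with control libraries, *Cldn5* was the only one of the 10 genes past the thresholds for differentially expressed genes (DEGs), *P* under 0.05 and |Log2FC| above 0.32 (a positive Log2FC means higher in *AP1AR-DT* OE). This is 1 of 10 genes (10%), with 1 higher and 0 lower. The thresholds called 12.2% of all genes tested, 5.10% higher and 7.15% lower, so the share among the 10 genes was near the background. The Log2FC was above 0 for 8 of 10 genes, against 48.5% of all genes, and its median was 0.20, against -0.01 for all genes. After Benjamini-Hochberg adjustment over all genes, edgeR called 0 of the 10 genes at *P* under 0.05 (1 at an unadjusted *P* under 0.05), limma-voom called 0 and DESeq2 called 1, *Cldn5*. edgeR called 0.0275% of all genes after adjustment. The share of all genes that DESeq2 called after adjustment is not given here, so its call of *Cldn5* has no background beside it. The samples are labelled as separate mice, and *P* values measure the spread between these 3 libraries of a group. In bulk tissue, a different number of vessel cells and a different RNA content per vessel cell cannot be told apart.

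**Figure D1:**
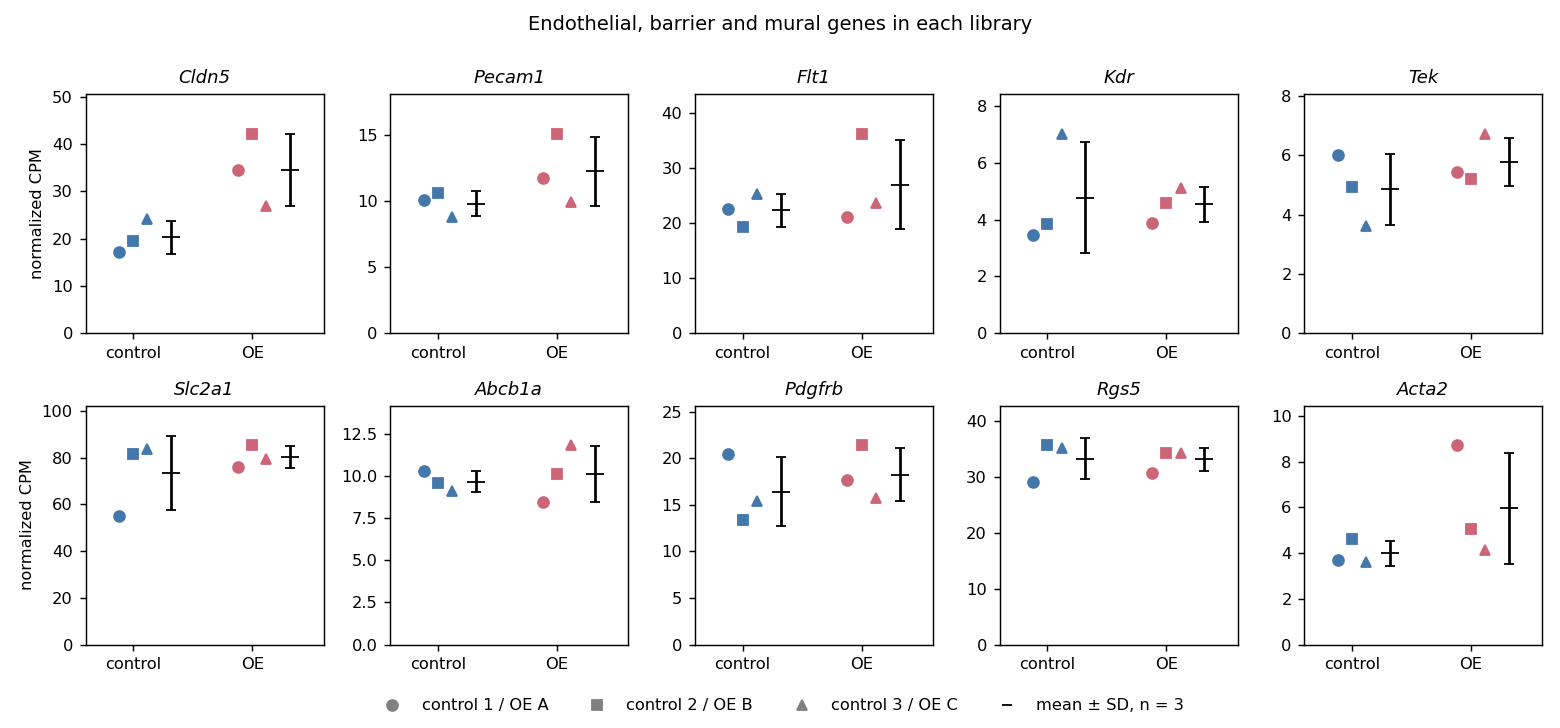
Normalized CPM of each of the 10 genes (y axis, from 0) in 3 control and 3 *AP1AR-DT* OE (OE) libraries (x axis), with 1 point per library and the mean ± SD of each group beside the points. The groups separate for *Cldn5*, between 24.1 and 27.0, and overlap for the other 9 genes.

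*Cldn5* encodes claudin-5, the main claudin of the tight junctions that seal brain endothelial cells. The gene lies at chr16:18776847-18778262 on the plus strand (GRCm38, identifier ENSMUSG00000041378) and has 1 annotated transcript of 1416 bases, which is as long as the gene itself and so contains no intron. Its level was 17.2, 19.5 and 24.1 normalized CPM in controls 1 to 3 and 34.5, 42.1 and 27.0 in *AP1AR-DT* OE libraries A to C. All 3 *AP1AR-DT* OE libraries lay above all 3 controls, with library C closest to control 3. The means were 20.3 ± 3.49 and 34.5 ± 7.55 (SD, n = 3 each), a ratio of 1.70. The Log2FC was 0.77 (SE 0.20, 95% interval 0.30 to 1.23), with an edgeR *P* of 0.00577 and an adjusted *P* of 0.295. Groups that did not overlap were found for 22.4% of all genes, 10.4% in the higher direction. The exact permutation test gave *P* = 0.1, the smallest value that 3 against 3 allows.

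The difference in *Cldn5* had an unadjusted *P* under 0.05 in 16 of 16 fits, and its adjusted *P* ranged from 0.0286 with DESeq2 to 0.661. On leaving out 1 library, the Log2FC ranged from 0.60 without library B to 0.93 without library C, and was 0.66 without control 1. It was 0.92 without control 3 and 0.75 without control 2, the libraries with choroid plexus and hypothalamic RNA. The *Cldn5* transcript has a GC content of 60.5%, and the 1357 genes within 2 percentage points of it had a median Log2FC of 0.23. With a correction for GC content in the model, the Log2FC of *Cldn5* was 0.50 (95% interval 0.12 to 0.88) and *Cldn5* was still called, against 7.16% of all genes, 2.63% higher and 4.52% lower, in that fit.

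The promoter of *Cldn5* is shown because this was the only gene of the 10 that was called. The 250 bases before its start, at chr16:18776597-18776846 on the plus strand of GRCm38.p6 (RefSeq), overlap no GENCODE exon, and capitals mark a GGGCGG element (GC box) read on the opposite strand.

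Cldn5: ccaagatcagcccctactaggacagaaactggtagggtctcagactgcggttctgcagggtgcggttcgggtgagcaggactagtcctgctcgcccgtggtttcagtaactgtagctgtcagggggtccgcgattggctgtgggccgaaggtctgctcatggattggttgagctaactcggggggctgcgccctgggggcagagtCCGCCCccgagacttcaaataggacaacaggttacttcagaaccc

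RefSeq windows were at hand for 8 of the 10 genes, all but *Pecam1* and *Pdgfrb*. They were searched on both strands for GGGCGG, for TATAAA and for the CArG box, the core of serum response elements in muscle genes, exactly and with 1 mismatch in its centre. GGGCGG was present in *Cldn5*, *Flt1*, *Kdr* and *Slc2a1*, and in 32.7% of 32851 mouse promoters of the same length. *Cldn5*, *Kdr* and *Slc2a1* each had 1 such GC box that began at position -45 before the RefSeq start, and *Kdr* had another at -166 and *Slc2a1* another at -20. GENCODE exons cover 34 bases of the *Slc2a1* window and 3 of the *Kdr* window. The box at -20 of *Slc2a1* thus lies inside a GENCODE exon, and the position -45 is shared only as counted from the RefSeq starts. The boxes at -45 of *Kdr* and *Slc2a1* are printed with their flanks for comparison. The printed stretches are chr5:75978483-75978512 (minus strand) and chr4:119108688-119108717 (plus strand).

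Kdr: ccggtaatgaccCCGCCCccattcgctagt
Slc2a1: cctctcagagtcCCGCCCcggacgtgctcc

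Of these 3 genes *Cldn5* was the only one called. TATAAA was found in *Flt1* alone of the 8, at position -31, and in 12.4% of all promoters. GC content of the windows ranged from 40.4% for *Abcb1a* to 70.4% for *Flt1*, with a median of 52.4% over all promoters. The *Abcb1a* window, chr5:8566841-8567090, precedes a RefSeq start far upstream of the GENCODE start at chr5:8660077. It is thus not the region next to the gene as given here.

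*Pecam1* (chr11:106654217-106750628, minus strand) encodes the adhesion molecule CD31 at the borders between endothelial cells. Its level was 10.1, 10.6 and 8.79 in controls and 11.8, 15.1 and 9.95 in *AP1AR-DT* OE libraries. Libraries A and B lay above all controls and library C within them. The Log2FC was 0.32 (95% interval -0.12 to 0.76, edgeR adjusted *P* = 0.436), 0.46, with a *P* under 0.05, without library C and 0.14 without library B.

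The 3 receptors did not pass the thresholds. *Flt1* (chr5:147561604-147726011, minus strand) and *Kdr* (chr5:75932827-75978458, minus strand) encode the receptors VEGFR1 and VEGFR2, of which the latter carries most of the growth signal. *Flt1* was at 22.6, 19.3 and 25.3 in controls and 21.2, 36.2 and 23.6 in *AP1AR-DT* OE libraries. Only library B was outside the control range. The Log2FC of *Flt1* was 0.27 (95% interval -0.25 to 0.79, edgeR adjusted *P* = 0.576) and 0.00 without library B.

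*Kdr* was at 3.47, 3.84 and 7.01 in controls and 3.88, 4.60 and 5.13 in *AP1AR-DT* OE libraries. Control 3, the library with choroid plexus RNA, was the highest of the 6, and the 5 others lay between 3.47 and 5.13. The Log2FC was -0.07 (95% interval -0.78 to 0.63, edgeR adjusted *P* = 0.925), and 0.33 without control 3, still not called. *Tek* (chr4:94739289-94874976, plus strand), which encodes the angiopoietin receptor Tie2, was at 6.02, 4.92 and 3.62 in controls and 5.43, 5.21 and 6.71 in *AP1AR-DT* OE libraries. Here control 3 was the lowest library, opposite to *Kdr*, and the groups overlapped. The Log2FC of *Tek* was 0.25 (95% interval -0.29 to 0.80, edgeR adjusted *P* = 0.618), 0.09 without control 3 and 0.44 without control 1.

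Neither barrier transporter was called. *Slc2a1* (chr4:119108711-119137983, plus strand) encodes GLUT1, which carries glucose across the endothelium and is also made by astrocytes. Its level was 55, 81.3 and 83.8 in controls and 75.8, 85.2 and 79.2 in *AP1AR-DT* OE libraries. Control 1 was low and the other 5 libraries lay together. The Log2FC was 0.13 (95% interval -0.27 to 0.52, edgeR adjusted *P* = 0.742), and -0.04 without control 1.

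*Abcb1a* (chr5:8660077-8748575, plus strand) encodes P-glycoprotein, the efflux pump that keeps many drugs out of the brain. Its level was 10.3, 9.54 and 9.07 in controls and 8.47, 10.1 and 11.8 in *AP1AR-DT* OE libraries, and the control range lay inside that of the *AP1AR-DT* OE libraries. The Log2FC was 0.07 (95% interval -0.31 to 0.45, edgeR adjusted *P* = 0.859). Of the 100-base stretches of its transcript, 7.72% also occur in other genes, nearly all in its close relative *Abcb1b*, so part of its counts is uncertain. *Abcb1b* was at a mean of 2.02 with a Log2FC of -0.32 (edgeR adjusted *P* = 0.596). No such stretch was shared for the other 9 genes.

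Among the mural genes, *Pdgfrb* (chromosome 18, plus strand), the receptor through which pericytes are recruited, was at 20.5, 13.4 and 15.4 in controls and 17.7, 21.4 and 15.7 in *AP1AR-DT* OE libraries. The groups overlapped, with the lowest value in control 2 and the highest in library B. The Log2FC was 0.15 (95% interval -0.31 to 0.61, edgeR adjusted *P* = 0.734), and -0.00 with the correction for GC content. It ranged from 0.03 without library B or control 2 to 0.34 without control 1.

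*Rgs5* (chr1:169655501-169695813, plus strand) encodes a regulator of G protein signalling that is abundant in pericytes. It was the steadiest of the 10 genes, with 29.1, 35.7 and 35.2 in controls and 30.8, 34.4 and 34.3 in *AP1AR-DT* OE libraries, a ratio of highest to lowest of 1.23. The *AP1AR-DT* OE values all lay inside the control range. The Log2FC was -0.01 and its 95% interval was the narrowest of the 10, from -0.29 to 0.27 (edgeR adjusted *P* = 0.979). *Rgs5* has the lowest GC content of the 10 transcripts, 41.1%, and with the correction for GC content its Log2FC was 0.23 (95% interval -0.04 to 0.50).

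*Acta2* (chr19:34241090-34255590, minus strand) encodes smooth muscle alpha-actin. It was at 3.71, 4.62 and 3.62 in controls and 8.71, 5.06 and 4.12 in *AP1AR-DT* OE libraries. Library A stood far above the others, library B was just above the highest control, and library C lay within the controls. The Log2FC was 0.58 (95% interval -0.13 to 1.29, edgeR adjusted *P* = 0.396), 0.21 without library A and 0.80, with a *P* under 0.05, without library C. *Acta2* was a minor actin in this tissue, with a mean of 729 for *Actb* and 599 for *Actg1*, the cytoplasmic actins, and 6.12 for *Acta1*. The means of *Actc1* and *Actg2* were 0.0197 and 0.0469.

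The upstream sequence of *Acta2* is shown because it carried a pair of CArG boxes with 1 mismatch each in the centre, a motif known from smooth muscle genes. At least 1 such box was present in 7.24% of all promoters and 2 or more in 0.548%, and among the 8 windows *Kdr* held 1, at position -236. The exact CArG box was in none of the 8 windows and in 1.47% of all promoters. The boxes, in capitals, began at positions -84 and -34 before the RefSeq start. The printed stretches with their flanks are chr19:34255438-34255467 and chr19:34255388-34255417 (minus strand), and both lie inside the first GENCODE exon of a longer transcript.

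Acta2 distal: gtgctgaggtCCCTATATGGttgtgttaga
Acta2 proximal: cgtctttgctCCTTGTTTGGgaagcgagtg

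*Acta2* and *Kdr*, the windows that held such a box, had Log2FC values of 0.58 and -0.07, and neither was called.

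**Figure D2:**
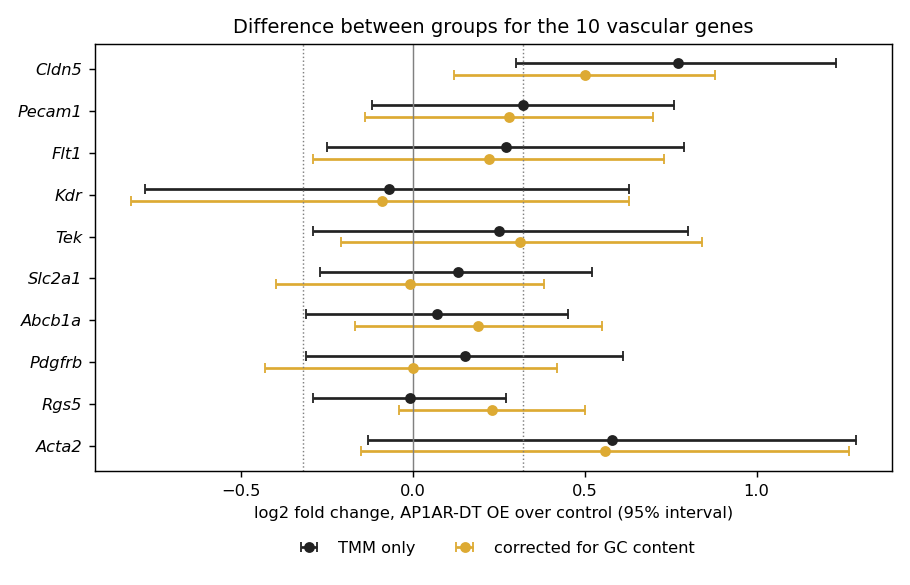
Log2FC of *AP1AR-DT* OE over control (x axis) with its 95% interval for each of the 10 genes (y axis), from the model with TMM factors only and from the model corrected for GC content. Dotted lines mark a Log2FC of 0.32 in either direction. The interval of *Cldn5* lies above 0 in both models, from 0.30 and from 0.12, and those of the other 9 genes include 0.

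The level of the 7 endothelial and barrier genes differed among the libraries of a group. Each gene's log2 level was centred on its own mean and averaged over the 7 genes, which gave -0.19, -0.14 and -0.03 in controls and -0.01, 0.27 and 0.10 in *AP1AR-DT* OE libraries. Library B was thus highest and control 1 lowest. Library B held the highest value of 4 of these 7 genes, and control 1 the lowest of 3. For the 3 mural genes the averages were -0.08, -0.09 and -0.14 in controls and 0.25, 0.15 and -0.09 in *AP1AR-DT* OE libraries, where library C lay among the controls. Library B also had the highest summed level of excitatory neuron markers, 3410 against 1310 to 2750 in the other libraries, and the lowest mitochondrial share, 5.75%. The part of tissue composition in the vessel values was not tested.

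The genes nearest to the endothelial profile over the 6 libraries, by the root mean square difference among 14201 expressed genes, were *Dcakd* (0.0215), *Acat3*, *Mpzl1*, *Lzts2* and *Pdk2* (0.0347). Those nearest to the mural profile were *Med4* (0.0179), *Gm11478*, *Zfp692*, *Entpd1* and *Gm9385* (0.0279). The single endothelial and barrier genes differed from their own mean profile by 0.170 for *Slc2a1* to 0.305 for *Cldn5*, and the mural genes by 0.203 to 0.268. The nearest genes were picked as the smallest differences among 14201 genes, so these values cannot be weighed against theirs.

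Other genes of the brain vasculature were taken from 6 lists, of which 78 of 81 genes were tested. The lists were chosen with earlier results of these data known, so their shares of called genes are a description and not independent evidence. Of 20 further endothelial genes, 7 were called higher and 0 lower, a share of 35.0% against 5.10% of all genes in the higher direction, and 17 of 20 had a Log2FC above 0. The median Log2FC of the list was 0.30. None of the 7 passed the adjustment with edgeR, whose adjusted *P* values ran from 0.295 to 0.316, while DESeq2 passed 2, *Itm2a* and *Cd34*. The share of all genes that DESeq2 passed is not given here. In all 7 the groups did not overlap. Over the whole list 8 of 20 genes were higher without overlap, against 10.4% of all genes.

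*Itm2a*, which encodes an integral membrane protein found in brain endothelium, was at 26.6, 26.4 and 27.2 in controls and 36.1, 42.6 and 36.2 in *AP1AR-DT* OE libraries. The controls were nearly equal, and every *AP1AR-DT* OE library was well above them. The Log2FC was 0.52 (SE 0.11, edgeR adjusted *P* = 0.295). It was 0.75 with the correction for GC content, and the transcript has a GC content of 41.7%. *Cd34*, a sialomucin on the luminal face of endothelial cells and also on some fibroblasts and progenitor cells, had the largest difference of the list. It was at 9.69, 12.1 and 9.89 in controls and 19.8, 23.1 and 15.4 in *AP1AR-DT* OE libraries. All 3 *AP1AR-DT* OE libraries again lay above the controls, with C the lowest of them. The Log2FC of *Cd34* was 0.88 (SE 0.18, edgeR adjusted *P* = 0.295), and its adjusted *P* ranged from 0.00778 to 0.661 over the 16 fits.

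*Ly6a* (Log2FC 0.66, edgeR adjusted *P* = 0.295), a surface antigen of brain endothelium, and *Sox17* (0.81, edgeR adjusted *P* = 0.295), an arterial transcription factor, were higher as well. The remaining 3 were *Ly6c1* with a Log2FC of 0.57, *Robo4* with 0.54 and *Eng*, a co-receptor of the TGF-beta family, with 0.34. With the correction for GC content 5 of the 7 were still called, and *Eng* and *Robo4* were not, against 2.63% of all genes in the higher direction. The count of 7 was 5 without control 1 or without library B, 6 without control 3, and 10 without library C. The share of all genes called on leaving out a library is not given here, so these counts have no background beside them. Library B was the highest of the 6 libraries for 12 of the 20 genes. Of the 10 fibroblast and meningeal markers, 0 were called by edgeR, 6 had a Log2FC above 0 and the median was 0.25. In this list 1 gene (*Col1a1*) was higher without overlap between the groups, against 10.4% of all genes. The part of such cells in the endothelial values was not tested.

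**Figure D3:**
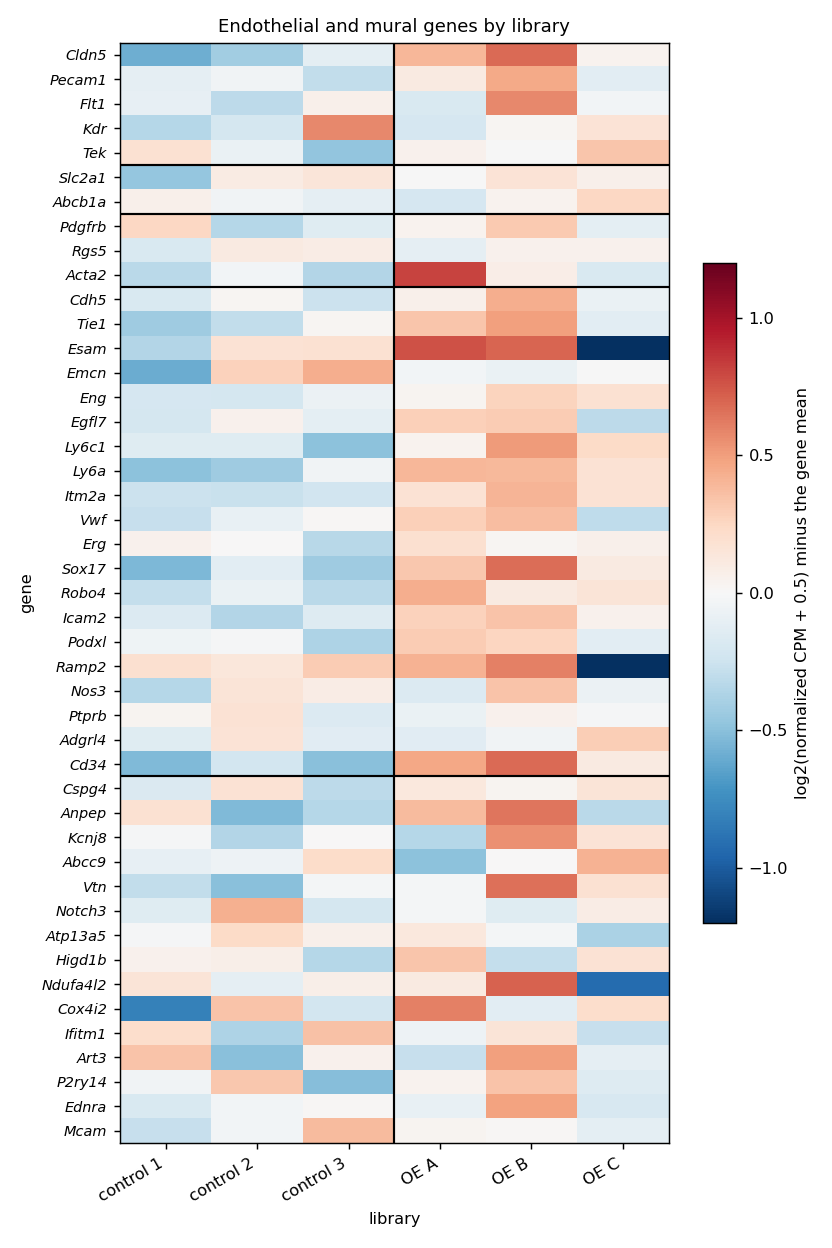
Level of the endothelial, barrier and mural genes (rows) in each of the 6 libraries (columns), as log2(normalized CPM + 0.5) minus the gene's mean, from blue (below the mean) to red (above). Horizontal lines divide, from the top, the 5 endothelial genes, the 2 transporters, the 3 mural genes, 20 further endothelial genes and 15 further pericyte genes. Libraries A and B are red for many endothelial genes, and *Esam* and *Ramp2* are far below their means in library C.

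For *Esam* and *Ramp2*, endothelial genes chosen for mention after their values were seen, library C stood apart. *Esam*, an adhesion molecule of endothelial junctions, was at 4.33, 6.49 and 6.53 in controls, at 9.53 or more in libraries A and B and at 1.73 in library C. *Ramp2*, which shapes the adrenomedullin receptor, was at 39.9, 38.4 and 43.3 in controls, 46.6 and 53.3 in A and B and 10.7 in C. *Vps25*, which shares 33.4% of the exon bases of *Ramp2* on the same strand, was at 1.18 to 2.47 in 5 libraries and at 11.3 in C. The sum of both genes in library C was 22.0, against 39.5 to 55.8 in the others. The part of read assignment between the overlapping genes in the low value was not tested.

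Of 16 further junction and transporter genes of the barrier, 1 was called higher and 1 lower, a share of 12.5% against 12.2% of all genes. The median Log2FC was -0.13, and 0.13 with 0 genes called without control 3. *Slc7a5*, which encodes the large neutral amino acid transporter LAT1, was at 57.2 to 73.5 in controls and 77.1 to 93.3 in *AP1AR-DT* OE libraries (Log2FC 0.39, edgeR adjusted *P* = 0.295). *Tfrc*, the transferrin receptor for iron uptake, was at 83.7 to 94.0 in controls and 66.8 to 71.8 in *AP1AR-DT* OE libraries (Log2FC -0.36, edgeR adjusted *P* = 0.295). Neither pair of groups overlapped. With the correction for GC content the values were 0.21 and -0.09, and neither was called. *Slc7a5* was also not called without library B. Both genes are also made in cells outside the vessels.

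Of 13 ligands and co-receptors, 1 was called higher and 2 lower, a share of 23.1% against 12.2% of all genes. The list median was 0.07. *Pdgfb*, the ligand of *Pdgfrb*, was at 21.5, 22.3 and 21.4 in controls and 32.6, 35.4 and 25.3 in *AP1AR-DT* OE libraries. The groups did not overlap, and library C lay nearest to the controls. The Log2FC of *Pdgfb* was 0.52 (SE 0.14, edgeR adjusted *P* = 0.295), and 0.26, no longer called, with the correction for GC content. *Pdgfd*, the other ligand of this receptor in the list, was at 3.20, 3.86 and 11 in controls and 2.19 to 2.92 in *AP1AR-DT* OE libraries. Its Log2FC was -1.28 (edgeR adjusted *P* = 0.306), and -0.49, no longer called, without control 3. The call of *Pdgfd* was also lost with the correction for GC content (-1.01), with limma-voom (-1.10) and on leaving out library A, B or C. *Angpt1*, the activating ligand of *Tek*, was at 5.19, 8.80 and 8.87 in controls and 4.24, 3.65 and 6.21 in *AP1AR-DT* OE libraries. The groups overlapped, and the Log2FC was -0.70 (edgeR adjusted *P* = 0.325), or -0.42, no longer called, with the correction for GC content. The call of *Angpt1* was also lost on leaving out library A, library B, control 2 or control 3.

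Of 15 further pericyte genes, 1 was called, a share of 6.67% against 12.2% of all genes. The list median was 0.17, and -0.01 with 0 genes called without library B. This was *Vtn*, which encodes vitronectin, at 23.5, 20.3 and 28.5 in controls and 28.5, 46.2 and 32.9 in *AP1AR-DT* OE libraries (Log2FC 0.57, edgeR adjusted *P* = 0.300). Library A was level with control 3, and library B was the highest. The call of *Vtn* was lost with the correction for GC content (0.41) and without library B (0.35), control 1 (0.56) or control 2 (0.47). Of 10 smooth muscle genes tested, 0 were called by edgeR, DESeq2 or limma-voom (with edgeR 0 also at an unadjusted *P* under 0.05), although 8 of 10 had a Log2FC above 0 and the median was 0.44. The median was 0.24 without library A and 0.28 without control 3, and 1 gene, *Tpm2*, was called without control 1. The most abundant of these, *Myl9*, which encodes a regulatory light chain of myosin, and *Mylk*, its kinase, had Log2FC values of 0.30 and -0.05. *Mylk*, like *Kdr*, was highest in control 3, and without that library its Log2FC was 0.31.

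Of the 4 genes of endothelial activation and fenestration that could be tested, 1 was called, a share of 25.0% against 12.2% of all genes. This was *Vcam1*, a leukocyte adhesion molecule that other brain cells also make, which was lower. It was at 32.1, 31.7 and 40.0 in controls and 29.9, 23.0 and 23.0 in *AP1AR-DT* OE libraries (Log2FC -0.45, edgeR adjusted *P* = 0.295), and at a Log2FC of -0.19, no longer called, with the correction for GC content. The call was also lost on leaving out library B, library C or control 3. *Sele*, the endothelial selectin of inflammation, had 0 counts in all 6 libraries. Over the 6 lists and the 10 genes of known markers, the genes called higher were thus mostly endothelial. With the 7 endothelial and barrier genes included these were 8 of 27 tested (29.6%), and the mural genes gave 1 of 28 (3.57%). The share called higher over all genes was 5.10%. The 27 leave out the 16 further junction and transporter genes, of which 1 was called higher. With the correction for GC content the counts were 6 of 27 and 0 of 28, against 2.63% of all genes. The median Log2FC was 0.30 for the 27 genes and 0.19 for the 28, and 0.21 and 0.19 with that correction. This contrast between the lists was not tested.

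**Figure D4:**
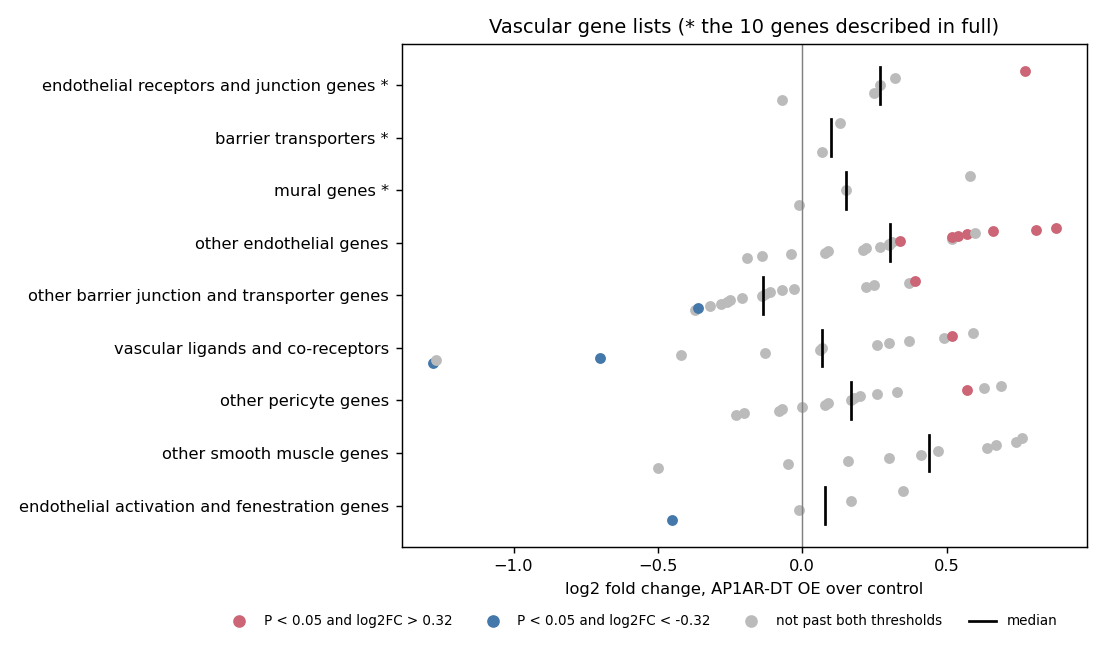
Log2FC of *AP1AR-DT* OE over control (x axis) for each gene of the vascular lists (rows, with the 10 genes marked by an asterisk), with the list median as a black line. Red points passed *P* under 0.05 and a Log2FC above 0.32, blue points passed with a Log2FC below -0.32, and 7 of the 20 further endothelial genes are red while none is blue.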

How the data were processed

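The authors extracted total RNA with TRIzol, prepared libraries with the TruSeq kit and sequenced paired-end reads. Per the methods of the study, reads were mapped to GRCm38 with Bowtie2, which does not split reads at introns, and StringTie with the GENCODE annotation and its Python script gave counts. The submitters' processing notes instead name TopHat2 2.0.4, SAMtools, HTSeq, Cuffdiff, edgeR 2.6.12 and mm9, and use of strand is not stated. The deposited gene counts were used without the normalization or the fold changes, *P* values and adjusted *P* values of the authors' comparison in the same table.

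Here, counts were filtered with filterByExpr, scaled by TMM and tested with the quasi-likelihood F-test of edgeR 4.0.16 in R 4.3.3 (two-sided, Benjamini-Hochberg over 21844 genes), with all 6 libraries and no covariate. The common biological coefficient of variation was 0.313. Intervals use the SE and the degrees of freedom of that test. Single genes were also tested by exact permutation of log2(normalized CPM + 0.5). The GC correction entered a spline with 5 degrees of freedom, fitted per library, as offsets. Alternatives were DESeq2 1.42.0 and its size factors, library totals, limma-voom (limma 3.58.1), no filter, at least 10 counts in every library, GC content and length offsets, and leaving out each library, 16 fits in all. Models were tested on simulated data. Coordinates, transcripts and GC content are from GENCODE vM21 (52133 of 52390 identifiers matched) and promoters from RefSeq GRCm38.p6. Tables and figures were made with pandas 2.3.3, scipy 1.17.1 and matplotlib 3.10.9 in Python 3.11.15. The 10 genes and all lists were chosen with earlier results of these data known. Genes named besides the 10 are up to 4 called genes of each list by smallest *P*, or otherwise the 2 with the highest level, the sequence relatives and the nearest profiles. Others (*Ly6c1*, *Robo4*, *Eng*, *Esam*, *Ramp2*, *Vps25*, *Col1a1*, *Tpm2*, *Sele*, *Ocln*, *Tjp1*, *F11r*, *Cgn*, *Lsr*) were chosen after their values were seen.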

Additional observations from a re-analysis of the deposited data

How the results depend on the processing

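No paired analysis was possible because the *AP1AR-DT* OE columns are numbered 1 to 3 and the labels number these mice 3 to 5, and no source ties a number in one group to a number in the other. Over the alternatives, *Cldn5* stayed called and 0 of the 10 genes were called lower. The number called higher was 1 to 3 on leaving out each library, with 3 (*Cldn5*, *Pecam1*, *Acta2*) without library C, and DESeq2 called 1 gene after adjustment. The median Log2FC of the 10 genes (0.20) was 0.26 with length offsets and 0.08 (without library B) to 0.31 (without control 1) on leaving out each library, with 0.25 without control 3. Of the vascular lists, 10 genes were called higher and 4 lower, a share of 17.9% against 12.2% of all genes. With GC content of the longest transcript these were 5 and 1 of 78 genes tested, and 7.16% of all genes were called in that fit, 2.63% higher and 4.52% lower. With mean GC content they were 5 and 1, and with length 2 were lower. Leaving out each library gave 6 (without library B) to 14 (without library C) higher and 0 (without control 3) to 6 (without control 1) lower. For the fits that left out a library, and for DESeq2, the share of all genes called is not given here.

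The Log2FC changed sign for *Kdr* with length offsets (0.01) and without library A (0.03) or control 3 (0.33, range over single libraries left out -0.26 to 0.33). It did so for *Slc2a1* with both GC corrections (-0.01 and -0.03) and without control 1 (-0.04, range -0.04 to 0.25), for *Abcb1a* without library C (-0.04, range -0.04 to 0.19) and for *Pdgfrb* with GC content of the longest transcript (-0.00). For *Rgs5* it was 0.00 with DESeq2 and with no filter, 0.23 and 0.21 with the GC corrections, 0.02 with length offsets and 0.05 without library A, control 2 or control 3 (range -0.10 to 0.05). For *Mylk* it was 0.09 with length offsets, 0.10 without library C and 0.31 without control 3 (range -0.24 to 0.31). The cause was not tested. The precision of each value rests on 3 libraries per group.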
